A study of Mus musculus with 48 samples.

Results

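The genes described here are 8 cyclophilins, the protein family that binds the drug cyclosporin A: Ppia, Ppib, Ppic, Ppid, Ppif, Ppig, Ppih and Ppil1. They were taken from the count table by matching its Ensembl gene IDs to these symbols; the family was picked with earlier results of these data known, and the rule itself uses no measured value. They are 8 of 55487 rows of the table. RNA was sequenced from slices of mouse kidney that were kept and treated ex vivo; the donors were male inbred mice, either C57BL/6J or DBA/2J, and the labels name no engineered allele. The 48 libraries formed 16 groups of 3, from 2 strains and 8 conditions. Slices were left as controls, given tunicamycin or given cyclosporin A, each for 6 h or 24 h. The other 2 conditions were normoxia, which the labels call an ischemia model, and normoxia-hyperoxia, which they call a reperfusion model; their titles give 24 h. Drug doses, the age of the mice and the oxygen level of the control slices are not given in the labels. The labels number biological replicates but do not say whether slices with the same number came from the same mouse.

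Cyclophilins are peptidyl-prolyl cis-trans isomerases: they speed the turning of the peptide bond before a proline, a slow step in protein folding. Cyclosporin A blocks that activity, and the complex of drug and cyclophilin binds and inhibits the phosphatase calcineurin, which keeps NFAT transcription factors out of the nucleus. The same drug is toxic to the kidney, where tubule cells and arterioles are affected. Members differ in where they work. Ppia (cyclophilin A) is the abundant cytosolic form and the main intracellular receptor of the drug. Ppib (cyclophilin B) lies in the endoplasmic reticulum (ER) and Ppic (cyclophilin C) in the secretory pathway. Ppid (cyclophilin 40) is a co-chaperone of HSP90. Ppif (cyclophilin D) sits in the mitochondrial matrix and promotes opening of the permeability transition pore. Ppig, Ppih and Ppil1 are nuclear proteins tied to splicing.

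RefSeq's GRCm38.p6 table of gene starts held 6 of the 8 members. The 250 bases before the RefSeq start are shown for 2 of them, because Ppib was the member that rose under tunicamycin and Ppia the member that varied least. Both windows are on the plus strand, Ppib's at chr9:66059919-66060168 and Ppia's at chr11:6415617-6415866, which lies inside the longer span that GENCODE M21 gives Ppia. Capitals mark 3 motifs that were searched on both strands. They are the CCAAT box, the 5 bases CCACG that end an ER stress response element and read as CGTGG on the other strand, and the TATA box TATAAA.
Ppib: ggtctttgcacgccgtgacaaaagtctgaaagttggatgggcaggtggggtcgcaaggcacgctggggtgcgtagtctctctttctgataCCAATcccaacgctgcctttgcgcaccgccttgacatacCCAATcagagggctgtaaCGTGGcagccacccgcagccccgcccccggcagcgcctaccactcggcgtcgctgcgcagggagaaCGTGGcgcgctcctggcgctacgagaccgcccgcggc
Ppia: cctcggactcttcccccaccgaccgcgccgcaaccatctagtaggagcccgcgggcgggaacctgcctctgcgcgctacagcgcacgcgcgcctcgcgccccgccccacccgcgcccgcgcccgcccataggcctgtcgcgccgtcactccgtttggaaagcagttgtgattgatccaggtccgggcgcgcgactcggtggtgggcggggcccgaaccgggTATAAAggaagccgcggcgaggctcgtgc
The Ppib window held CCAAT at 160 and 121 bases before the start, and CCACG on the other strand at 103 and 37 bases. CCAAT occurred in 33.8% of the 32851 windows of the same length, CCACG in 28.3% and both in 9.26%, and no printed motif overlaps another. The full ER stress response element (ERSE) was in 0.113% of windows and its second form (ERSE-II) in 0.0304%; neither was in the windows of these 6 members. The Ppia window held TATAAA at 29 bases, a motif found in 12.4% of windows. Ppif held CCAAT at 46 bases and CCACG on the other strand at 67 and 79 bases, and Ppil1 held CCAAT at 217 bases and CCACG on the other strand at 199 bases. The heat shock element, found in 0.466% of windows, was in none of the 6. These matches describe letters, not sites.

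On GRCm38 with the GENCODE M21 annotation, all 8 are protein-coding genes. Ppia (ENSMUSG00000071866) spans chr11:6415443-6419817, Ppib (ENSMUSG00000032383) chr9:66060222-66066623, Ppid (ENSMUSG00000027804) chr3:79591342-79603650, Ppif (ENSMUSG00000021868) chr14:25694154-25700468 and Ppig (ENSMUSG00000042133) chr2:69722545-69754012, each on the plus strand. On the minus strand, Ppic (ENSMUSG00000024538) spans chr18:53406332-53418115, Ppih (ENSMUSG00000060288) chr4:119300010-119320546 and Ppil1 (ENSMUSG00000024007) chr17:29250803-29264186.

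Libraries held 5619309 to 25137581 counts (median 19607361). The lowest total was that of DBA/2J normoxia-hyperoxia replicate 2, and the next lowest was 12384733. All 8 members passed the filter on low counts in every comparison. Detection was checked for 8 markers each of proximal tubule, other tubule segments, immune, stromal, endothelial and podocyte cells, and none of the 48 markers was at 0 in all 3 libraries of any group. This shows detection and does not establish identity. In the drug and time comparisons 7 of the 8 immune markers passed the low-count filter. Ppia has 35 pseudogene copies, of at least 90% identity over at least 200 bases, whose rows summed to 2019 counts, 0.587% of the 343710 of Ppia. Counting copies in other genes too, 62.8% of its principal transcript lies in a copy of 98% identity or more; among them are the antisense gene Gm17494 (111 counts) and a transcript of Gclm, whose row has 196308 counts. How reads with several matches were counted is not given in the sources used here, so part of the Ppia count could be uncertain. The same holds for Ppih, with 43.9% of its transcript in such copies, of which the antisense gene Gm10069 had 370 counts beside 4491 for Ppih, for Ppid with 24.1% and for Ppig with 4.53%. Ppib shares 825 exonic bases with Snx22 on the opposite strand, whose 710 counts compare with 203765 for Ppib.

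The transcripts of the 2 drug receptors of the cytosol and the ER were the most abundant members in kidney slices. As levels per length, in CPM per kb (CPM are counts scaled to the library size with edgeR's TMM factors, here divided by the length of the principal transcript), Ppia had a median of 309 over the 48 libraries and a range of 261 to 399. Ppib followed at a median level of 237 (179 to 346), and Ppif at 46.2 (30.9 to 114). The median level per length was 20.5 for Ppic (12.4 to 56.4), 16.6 for Ppid (12.1 to 34.5), 15.5 for Ppig (8.58 to 19.4) and 10.6 for Ppil1 (7.45 to 16.9). Ppih was lowest at 3.45 (1.61 to 7.02), on 29 to 200 counts per library, so its values carry the widest counting error of the 8. Ppib lay above Ppif, and Ppil1 above Ppih, in all 48 libraries. Ppia lay above Ppib in 44 libraries, with the 3 libraries of each gene overlapping in 2 of the 16 groups. The order of Ppic and Ppid turned with the condition: Ppic was above Ppid without overlap in 8 groups and below it in 6. Ppid and Ppig overlapped in 6 groups. With the length of all annotated exons in place of the principal transcript, Ppic ranked the third, above Ppif, so the ranks in the middle of the order depend on the transcript assumed.

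**Figure D1:**
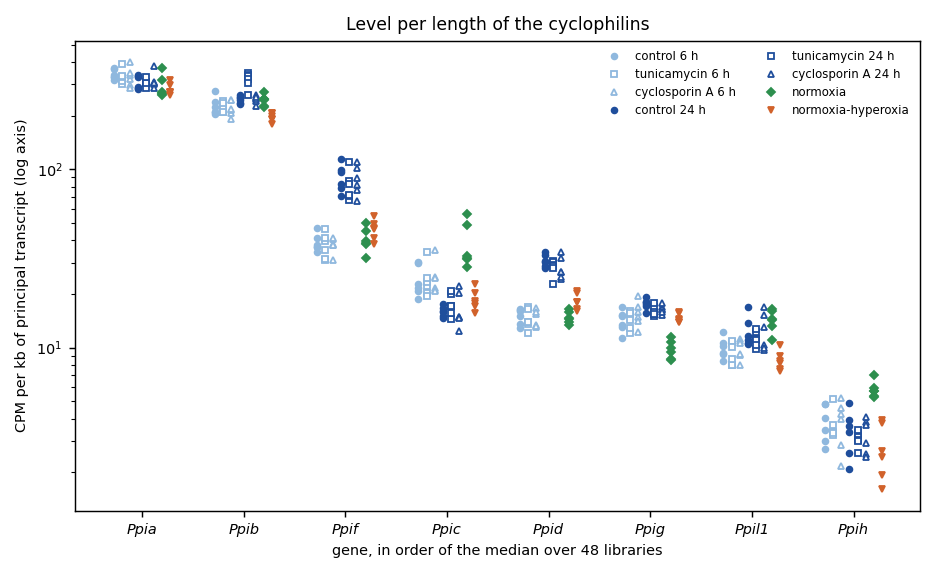
Level of each cyclophilin per kb of principal transcript (log axis) in each of the 48 libraries, with a symbol for each condition and genes in order of their median. Ppia and Ppib (medians 309 and 237) lie well above the others, and Ppih (3.45) is lowest.

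Cyclosporin A was the drug that binds these proteins, and the question was whether the slices changed the amount of their transcripts. None of the 8 members passed the test at 6 h or at 24 h. Ppia at 24 h had 334, 329 and 388 CPM in the C57BL/6J controls and 357, 353 and 361 under the drug. In DBA/2J it had 387, 340 and 393 CPM in controls and 442, 355 and 334 under the drug. Control and treated libraries overlapped in both strains. The mean log2 difference in Ppia over the strains was 0.03 at 24 h (95% interval -0.14 to 0.20) and -0.06 at 6 h (-0.23 to 0.11). Ppib at 24 h was 226.8 ± 7.43 CPM in C57BL/6J controls and 220.0 ± 15.2 under the drug (SD, n = 3), and 213.5 ± 8.998 against 221.0 ± 6.60 in DBA/2J. Its log2 difference of 0.01 had an interval of -0.10 to 0.12, the narrowest of the 8. Ppif, the mitochondrial form, differed by -0.03 at 24 h (-0.25 to 0.19), with 103, 138 and 126 CPM in treated C57BL/6J slices and 158, 169 and 119 in treated DBA/2J slices.

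The remaining members behaved alike in size. At 6 h the 8 log2 differences ran from -0.06 to 0.12, the highest being Ppig with an interval of -0.11 to 0.34. At 24 h they ran from -0.13 to 0.04, the lowest being Ppid with an interval of -0.34 to 0.08. The widest interval was that of Ppih at 6 h, from -0.37 to 0.41. In C57BL/6J, Ppia at 6 h and Ppic and Ppil1 at 24 h were lower in all 3 treated libraries than in all 3 controls. No such separation was seen for any member in DBA/2J, and none of the C57BL/6J separations passed the test. How many of all genes separated in this way was not counted. No gene had a called difference between the strains in its response to the drug at either time. The lowest adjusted p among the members was 0.82, for Ppig at 24 h. The same held for all other genes in edgeR's quasi-likelihood test with Benjamini-Hochberg adjustment: 0 of 16538 were called at 6 h (0%, with 734 at an unadjusted p under 0.05) and 0 of 16887 at 24 h (0%, with 1107). DESeq2 called 45 and 19 genes at the 2 times, and no member.

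Lists of related genes gave no call under cyclosporin A either. These were 9 other cyclophilins, 15 FKBP immunophilins (the family that binds FK506, of which 14 were tested) and 11 calcineurin, NFAT and Rcan genes. Also without a call were 14 ER folding partners of Ppib, 14 HSP90 partners of Ppid, 15 spliceosome partners of the nuclear members and 11 mitochondrial pore partners of Ppif. The calcineurin genes aside, the median log2 differences of these lists ran from -0.09 (HSP90 partners) to 0.01 at 6 h. At 24 h they ran from -0.11 (ER partners) and -0.09 (other cyclophilins) to 0.01. For the calcineurin list, which holds the subunits of that phosphatase, its NFAT substrates and the Rcan regulators, the median log2 difference was 0.02 at 6 h and -0.03 at 24 h, beside -0.00 and 0.01 over all genes tested. No cell type marker was called either. The medians of the marker lists ran from -0.68 (stromal) to 0.06 (immune) at 6 h, and from -0.34 (podocyte) to 0.12 (immune) at 24 h. The part of these marker differences was not tested.

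**Figure D2:**
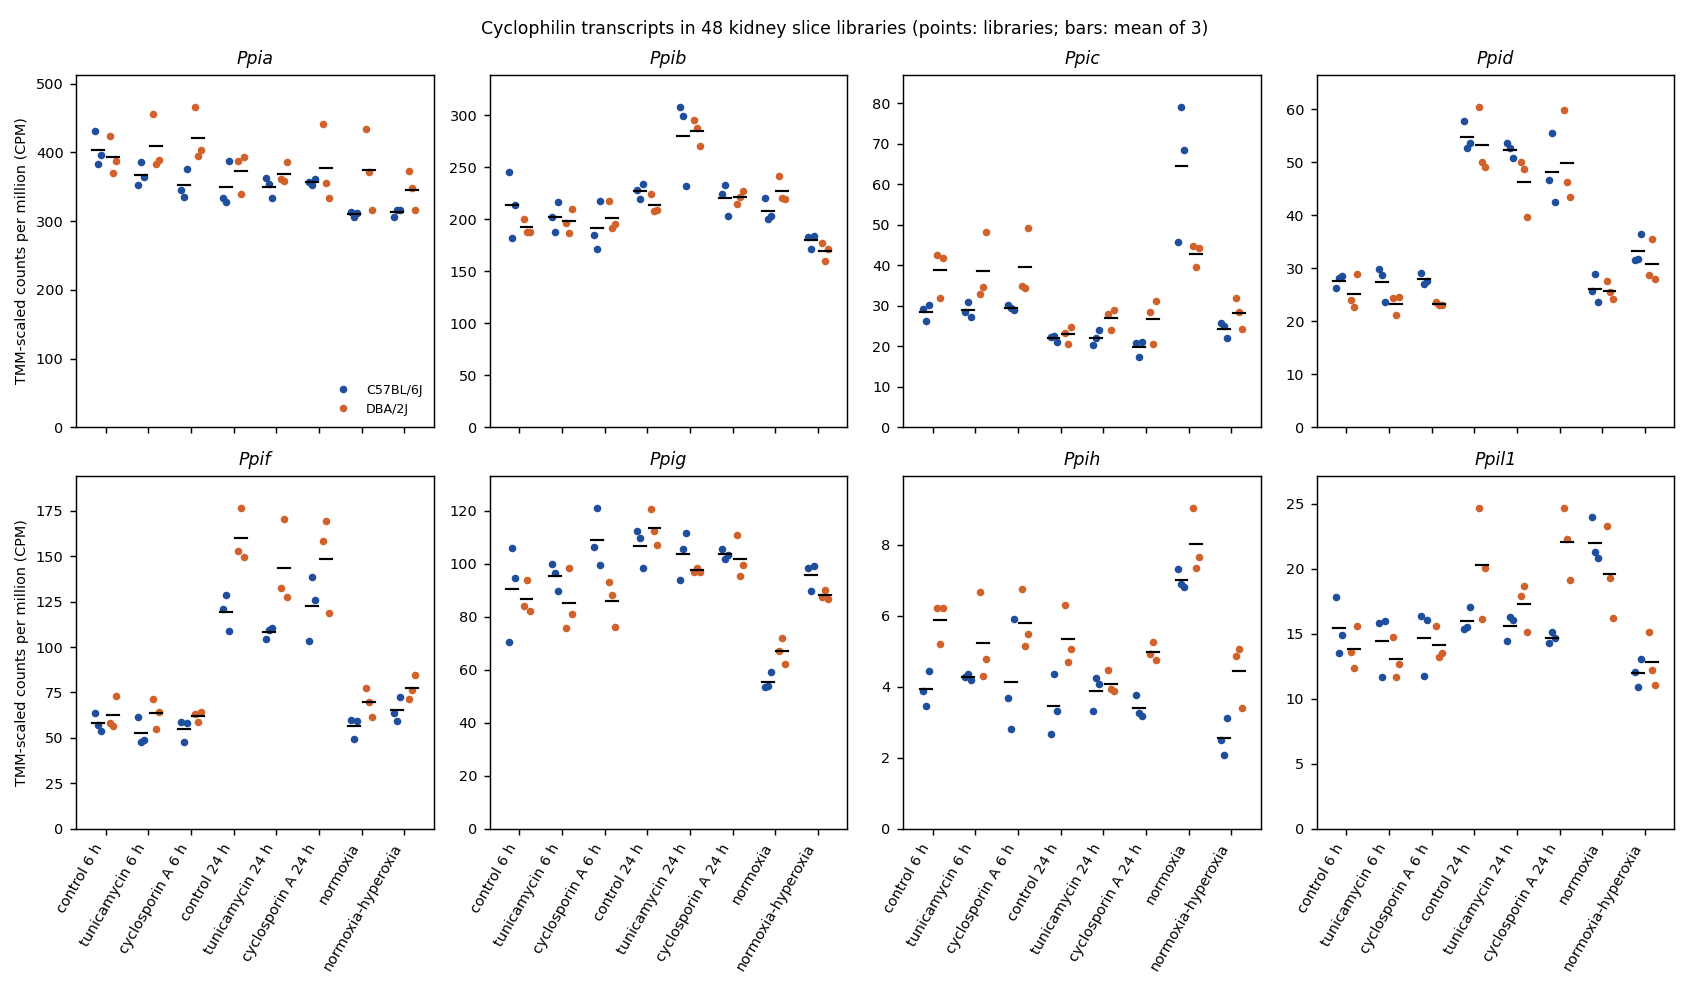
TMM-scaled CPM of each cyclophilin in each library (points, coloured by strain) with the mean of 3 (bars), for the 8 conditions in both strains; each panel has its own axis from 0. Ppib is highest under tunicamycin at 24 h, Ppid and Ppif are high in all 24 h control and drug groups, and Ppic and Ppih are highest under normoxia.

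Tunicamycin blocks N-glycosylation and so lets unfolded proteins gather in the ER. At 24 h it raised Ppib, the ER cyclophilin, and no other member. Ppib had 228, 219 and 234 CPM in the C57BL/6J controls and 308, 299 and 232 under tunicamycin. In DBA/2J it had 224, 208 and 209 CPM in controls and 296, 288 and 270 under tunicamycin. All 3 treated DBA/2J libraries lay above their controls, and in C57BL/6J 2 of 3 did, replicate 3 lying among them. The mean over the strains was 1.28-fold (95% interval 1.16 to 1.42; log2 0.36, SE 0.06; adjusted p = 0.013, edgeR quasi-likelihood). The log2 rise was 0.29 (SE 0.09) in C57BL/6J and 0.43 (SE 0.09) in DBA/2J, and neither strain passed the test alone (adjusted p = 0.57 and 0.061). Ppib was the 1 of 8 members called, where 1.38% of the 16905 genes tested were called.

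The other members had log2 differences between -0.15 for Ppif and 0.12 for Ppic at 24 h. Ppic shares the secretory pathway with Ppib. It had 20.3, 21.9 and 24.1 CPM in treated C57BL/6J slices and 27.9, 23.9 and 28.98 in treated DBA/2J slices, beside 22.2, 22.6 and 21 and 23.4, 20.6 and 24.7 in their controls (adjusted p = 0.55). Ppig had the smallest adjusted p of the 7, at 0.32, with all 3 treated DBA/2J libraries (96.9, 98.5 and 96.7 CPM) below the 3 controls (121, 112 and 107). Ppih was also below its controls in all 3 treated DBA/2J libraries (3.88 to 4.46 CPM against 4.69 to 6.31), and its log2 difference over both strains was -0.11 (adjusted p = 0.82). Ppid and Ppil1 were both at -0.13 (0.46 and 0.64).

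Ppib rose beside its ER partners. Of the 14 ER folding partners 11 rose and none fell, with a median log2 difference of 0.56 beside 0.01 over all genes. No cell type marker was called, and the medians of the 6 marker lists ran from -0.10 (endothelial) to 0.23 (other tubule) and 0.52 (stromal); their part was not tested. Without any 1 library, 7 to 12 of the ER partners rose, and 7 did so without C57BL/6J control replicates 2 or 3, DBA/2J control replicate 3 or C57BL/6J tunicamycin replicates 1 or 2. The largest were Pdia4, a disulfide isomerase, at 0.74 (SE 0.11, adjusted p = 0.010) and Calr, the lectin chaperone calreticulin, at 0.72 (SE 0.08, adjusted p = 0.0017). P3h1 and Crtap form the collagen prolyl 3-hydroxylase complex with Ppib. P3h1 rose by a log2 of 0.62, and Crtap had 0.04 and did not pass (adjusted p = 0.84). Among FKBPs 1 of 14 rose, Fkbp11, an ER member of that family, by 1.52 (SE 0.14, adjusted p = 0.0015). The lists of other cyclophilins, calcineurin, HSP90, spliceosome and pore genes had no call. The 14 ER partners are a list on which tunicamycin was already known to act in these data, so its count is no independent evidence. At 6 h no member and no gene was called (0% of 16551, with 281 at an unadjusted p under 0.05 and 0 by DESeq2), and the members' log2 differences ran from -0.09 for Ppil1 to 0.02 for Ppig, with control and treated libraries of all 8 overlapping in both strains. Ppib at 6 h had 202, 188 and 216 CPM in C57BL/6J and 197, 187 and 210 in DBA/2J under tunicamycin, within the range of its 6 controls (182 to 246).

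Between 6 h and 24 h in control slices, averaged over the strains, Ppid and Ppif about doubled, Ppig and Ppil1 rose slightly and Ppic fell. Ppid, the HSP90 co-chaperone, had 26.2, 28.2 and 28.6 CPM at 6 h and 57.7, 52.8 and 53.6 at 24 h in C57BL/6J. In DBA/2J it had 23.9, 22.6 and 28.9 and then 60.5, 50.02 and 49.1. Every 24 h library lay above every 6 h library, for a mean of 2.02-fold (95% interval 1.79 to 2.29; adjusted p = 2.5e-08). Ppif, the matrix cyclophilin, went from 63.5, 56.9 and 53.6 to 121, 129 and 109 CPM in C57BL/6J, and from 58.1, 56.5 and 73.0 to 153, 177 and 150 in DBA/2J. Again no library overlapped, for a mean of 2.27-fold (1.99 to 2.58; adjusted p = 8.1e-09).

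Ppic went the other way. It had 29.2, 26.3 and 30.1 CPM at 6 h and 22.2, 22.6 and 21 at 24 h in C57BL/6J, and 42.6, 31.99 and 41.8 and then 23.4, 20.6 and 24.7 in DBA/2J. The groups did not overlap in either strain, and the level at 24 h was 0.665 of that at 6 h (0.582 to 0.760; adjusted p = 1.6e-05). Ppig rose by a log2 of 0.30 (SE 0.09, adjusted p = 0.0065) and Ppil1 by 0.28 (SE 0.11, adjusted p = 0.033), both without overlap in DBA/2J and with overlap in C57BL/6J. By strain, Ppig was at 0.23 in C57BL/6J (adjusted p = 0.12, edgeR) and 0.36 in DBA/2J (0.018). Ppil1 was at 0.03 (0.86) and 0.53 (0.0085), and its difference between the strains did not pass (0.49, 0.35). The Ppil1 call was lost without any 1 of 6 libraries: C57BL/6J 6 h replicates 2 or 3, DBA/2J 6 h replicates 1 or 2, C57BL/6J 24 h replicate 3, or DBA/2J 24 h replicate 1 (adjusted p from 0.061 to 0.098). Ppia (log2 -0.16, adjusted p = 0.057), Ppib (0.10, 0.22) and Ppih (-0.18, 0.29) did not pass. Ppia passed without C57BL/6J 6 h replicate 2 (-0.19, adjusted p = 0.024) or 24 h replicate 3 (-0.20, 0.028), and Ppib without C57BL/6J 6 h replicate 1 (0.15, 0.030).

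The 5 called members stand beside a background of 72% of 16962 genes called, so a call in this comparison is common to most genes. TMM assumes that most genes do not change. With scaling by total counts alone the median of all genes moved from -0.02 to 0.19, and the calls went from 5883 up and 6338 down to 7580 up and 4969 down. On that scale Ppia turned from -0.16 to 0.05 and Ppih from -0.18 to 0.03, and Ppib rose by 0.31 (adjusted p = 0.0015). Ppid, Ppif and Ppic kept their directions and calls. In the partner lists, 14 of 15 spliceosome genes rose (median 0.48, led by Prpf3 at 1.05 and Plrg1 at 0.79), and 12 of 14 ER partners rose and 1 fell (median 0.65, led by Sdf2l1 at 1.89 and Pdia4 at 1.48). While Ppif rose, 9 of its 11 pore partners fell and 1 rose (median -0.57), with Atp5o at -1.10 and the adenine nucleotide carrier Slc25a5 at -0.91. Of 14 HSP90 partners 4 rose and 7 fell (median -0.15), with Ptges3, the co-chaperone p23, at 0.66 and Dnajb1 at -1.15; with total-count scaling 7 rose and 6 fell, and the median turned to 0.06. Of the 9 other cyclophilins 5 rose, led by Ppie at 0.88 and Nktr at 0.36, and Ppil6 fell by 2.10. Of the FKBPs 1 rose, Fkbp1a (FKBP12, the FK506 receptor), by 0.78, and 9 fell, led by Fkbp14 at -1.23; with total-count scaling 3 rose and 8 fell. Calcineurin genes split, with 5 up and 4 down, from Rcan3 at 0.88 to Rcan2 at -1.28. With that scaling they had 6 up and 3 down, the pore partners 2 up and 7 down, and the other cyclophilins 7 up and 1 down.

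Markers of cell types moved with time as well. All 8 proximal tubule markers fell (median log2 -2.68), their summed level going from 3195 to 8708 CPM at 6 h to 421.5 to 2292 CPM at 24 h. All 8 markers of other tubule segments fell (median -1.83), as did 6 stromal, 5 endothelial, 7 podocyte and 4 immune markers, while 1 endothelial, 1 podocyte and 1 immune marker rose. The share of counts from mitochondrial genes went from 8.05 to 16.3% to 3.39 to 7.87%. In bulk tissue, fewer cells of a type and less RNA per cell cannot be told apart, and the part of these shifts in the changes of the members was not tested.

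Slices of the normoxia condition differed from 24 h controls in 6 of the 8 members, beside 82% of all genes tested: Ppic, Ppih and Ppil1 were higher, and Ppid, Ppif and Ppig lower. Ppic had 45.8, 79.1 and 68.4 CPM in C57BL/6J and 44.7, 39.5 and 44.3 in DBA/2J under normoxia, against 20.6 to 24.7 in the 6 controls. That was 2.41-fold (95% interval 2.03 to 2.86; adjusted p = 5.7e-08), and C57BL/6J replicate 1 lay with the DBA/2J libraries rather than with the other two of its group. Ppih, a subunit of the tri-snRNP of the spliceosome, had 7.33, 6.91 and 6.81 CPM in C57BL/6J and 9.04, 7.36 and 7.67 in DBA/2J. All 6 lay above the controls (2.67 to 6.31), at 1.79-fold (1.46 to 2.202; adjusted p = 1.5e-05). Ppid had 25.7, 28.9 and 23.6 and then 27.7, 25.4 and 24.3 CPM in the 2 strains, all below the controls, at 0.495-fold (0.444 to 0.552; adjusted p = 9.0e-10). Ppif had 60.1, 49.4 and 59.4 and then 77.6, 69.5 and 61.7 CPM, again all below the controls, at 0.466-fold (0.414 to 0.524; adjusted p = 9.2e-10). Ppig, a large nuclear cyclophilin with a serine- and arginine-rich tail, had 53.6, 53.6 and 59.1 CPM in C57BL/6J and 67.1, 71.9 and 62.2 in DBA/2J. Its controls ran from 98.3 to 121, and the ratio was 0.571 (0.522 to 0.624; adjusted p = 1.3e-09).

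Ppia (log2 -0.04, adjusted p = 0.59) and Ppib (0.02, 0.69) did not pass. By strain, Ppib was at -0.12 in C57BL/6J (adjusted p = 0.13, edgeR) and 0.17 in DBA/2J (0.047), with overlap in both. The difference between the strains did not pass (0.29, 0.064). The Ppil1 call (log2 0.25, SE 0.10, adjusted p = 0.037) was weak. Ppil1 had 20.8 to 24.0 CPM under normoxia in C57BL/6J, all above its controls (15.3 to 17.04), and 16.2 to 23.3 in DBA/2J, overlapping them (16.2 to 24.7); the log2 differences were 0.47 (adjusted p = 0.0096) and 0.03 (0.85), and that between the strains did not pass (-0.44, 0.17). It was lost with RLE factors, DESeq2, the fit of all 48 libraries or without any 1 of 7 libraries: C57BL/6J 24 h control replicates 1 or 2, DBA/2J 24 h control replicates 2 or 3, C57BL/6J normoxia replicate 1, or DBA/2J normoxia replicates 1 or 2 (adjusted p from 0.051 to 0.11). With scaling by total counts the median of all genes moved from 0.05 to -0.22, and calls went from 7359 up and 6891 down to 5935 up and 8360 down. On that scale Ppil1 turned to -0.02, Ppia fell by 0.32 (adjusted p = 0.00075) and Ppib turned from 0.02 to -0.25 (adjusted p = 0.00020). The background was 82% of 17375 genes called. The labels place the oxygen conditions in another part of the study than the controls, so the oxygen condition and that part cannot be told apart.

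Partner lists moved in different directions. All 15 spliceosome partners fell, among them Prpf3, a partner of Ppih in the tri-snRNP, by 1.44 and Snu13 by 0.97, while Ppih rose. Of 14 ER partners 11 fell, with Hspa5 (BiP) at -3.33 and Sdf2l1 at -3.27, and 1 rose, Crtap at 0.82. Of 14 HSP90 partners 11 fell, led by Hspa1a at -5.73 and Hspa1b at -5.70, and Stub1 rose by 0.48. Of 11 pore partners 8 rose, led by Atp5o and Trap1 at 1.17 each, and Vdac3 fell by 0.20. Among other cyclophilins 3 rose, Ppil6 most at 2.24 and then Ppil3 at 0.37, and 5 fell, with Nktr at -1.44 and Ppie at -1.33. Of the FKBPs 10 rose, led by Fkbp14 at 1.73 and Fkbp2 at 0.96, and 2 fell, Fkbp10 at -1.11 and Fkbp1a at -0.99. Among calcineurin genes 3 rose and 4 fell, with Rcan1 at -2.05 and Rcan2 at 0.91. With total-count scaling 1 of the other cyclophilins rose and 6 fell, 2 calcineurin genes rose and 8 fell, and 7 pore partners rose and 3 fell. All 8 proximal tubule markers were higher (median log2 3.73, summed level 7393 to 17980 CPM), as were all 8 of other tubule segments, 6 immune and 3 endothelial markers, while 5 podocyte, 3 endothelial, 2 stromal and 1 immune marker were lower. Mitochondrial genes took 11.8 to 25.65% of counts. The part of these shifts in the members' changes was not tested.

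Set against 6 h controls, where 65.8% of 16819 genes were called, 5 members differed under normoxia. Ppid and Ppif were not among them: their log2 differences were -0.04 (95% interval -0.22 to 0.14) and 0.04 (-0.16 to 0.23). Ppib, at 0.08 (adjusted p = 0.34), did not pass either. The comparison with 24 h controls and that of 24 h with 6 h controls share the 24 h libraries, and this one shares libraries with both. Titles give 24 h for the normoxia slices, so time, oxygen condition and part of the study cannot be told apart here. Ppic rose by a log2 of 0.64 (adjusted p = 0.00023), at 1.14 in C57BL/6J without overlap and 0.14 in DBA/2J with overlap (adjusted p = 0.49), Ppih by 0.62 (9.4e-05) and Ppil1 by 0.49 (0.00055). Ppig fell by 0.56 (5.8e-05) and Ppia by 0.25 (0.011), the latter with 313, 306 and 311 CPM in C57BL/6J normoxia libraries, all below the 3 controls, and overlap in DBA/2J. The Ppia call was lost without DBA/2J 6 h control replicate 1 (adjusted p = 0.052) or DBA/2J normoxia replicate 3 (0.053). Of 14 HSP90 partners 11 fell, led by Hspa1a at -6.60 and Hspa1b at -6.57, and Stub1 rose by 0.41. Of 14 ER partners 7 fell, led by Hspa5 at -2.72 and Sdf2l1 at -1.42, and Crtap rose by 0.55. Spliceosome partners had 8 down and 2 up, from Prpf6 at -0.49 to Prpf4 at 0.35. Trap1 (0.28) was the 1 pore partner called. Other cyclophilins had 2 up and 4 down, FKBPs 6 and 3, and calcineurin genes 1 and 4. Proximal tubule markers were higher in 6 of 8 cases (median 0.95), immune markers had 5 up and 2 down (0.42) and other tubule markers 1 up and 4 down (-0.26), and all 8 stromal, endothelial and podocyte markers each were lower, at medians of -1.38, -0.78 and -1.25.

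Under normoxia-hyperoxia, 4 members fell from their normoxia level and 2 rose, beside 73.5% of all genes called. Ppih fell to 2.49, 2.07 and 3.12 CPM in C57BL/6J and 4.87, 5.07 and 3.39 in DBA/2J, all below the normoxia libraries, at 0.433-fold (95% interval 0.348 to 0.539; adjusted p = 1.0e-06). Ppic fell to 25.7, 24.9 and 22.1 and to 31.9, 28.5 and 24.1 CPM, without overlap, at 0.486-fold (0.404 to 0.586; adjusted p = 2.1e-06). Ppil1, a small cyclophilin that binds Snw1 in the spliceosome, fell from 16.2 to 24.0 CPM to 10.9 to 15.2 CPM over the 6 libraries, at 0.583-fold (0.494 to 0.689; adjusted p = 6.1e-06). Ppib fell from 200 to 241 CPM to 160 to 184 CPM, at 0.785-fold (0.717 to 0.859; adjusted p = 4.3e-05). Within each strain none of these 4 overlapped.

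The 2 members that rose were Ppig, to 98.3, 89.8 and 99.0 CPM in C57BL/6J and 87.4, 90.1 and 86.7 in DBA/2J, at 1.47-fold (1.35 to 1.61; adjusted p = 2.3e-07), and Ppid. Ppid had 31.6, 31.7 and 36.6 and then 28.7, 35.5 and 28.1 CPM, at 1.198-fold (1.06 to 1.36; adjusted p = 0.0067). Ppia (log2 -0.08, adjusted p = 0.33) and Ppif (0.15, 0.096) did not pass. Ppif passed without DBA/2J normoxia replicate 1 (0.19, adjusted p = 0.047). The background was 73.5% of 17228 genes called. With total-count scaling the median of all genes moved from 0.02 to 0.11, calls went from 6371 up and 6292 down to 6966 up and 5648 down, Ppia turned to 0.01 and Ppif rose by 0.24 (adjusted p = 0.011).

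Of the partners of Ppid, 12 of 14 HSP90 genes rose, the inducible HSP70 genes Hspa1b by 8.57 and Hspa1a by 8.54, and 2 fell, led by Stub1 at -0.76. Of 14 ER partners 9 fell and 4 rose, with Crtap at -1.36, P4hb at -0.90, Serpinh1 at 1.43 and Hspa5 at 1.74. Spliceosome partners had 7 up, led by Prpf6 at 0.57 and Snu13 at 0.52, and Prpf4, the other tri-snRNP partner of Ppih, fell by 0.42. Of the pore partners 5 fell, led by Trap1 at -0.69 and Vdac1 at -0.58, and Hspd1 rose by 0.37. Other cyclophilins had 5 up, with Nktr at 1.11 and Ranbp2 at 0.96, and 3 down, with Ppil3 at -0.92 and Ppil2 at -0.40. FKBPs had 8 down, with Fkbp14 at -0.85 and Fkbp2 at -0.79, and Fkbp7 rose by 0.61. Of the calcineurin genes 4 rose, led by Rcan1, a feedback inhibitor of calcineurin, at 4.30, and 3 fell. With total-count scaling 4 calcineurin genes rose and 1 fell, and 2 pore partners rose and 3 fell. All 8 proximal tubule markers fell (median -4.61, summed level 197.0 to 1052 CPM), and 8 podocyte, 7 endothelial, 6 other tubule, 5 stromal and 4 immune markers rose. Mitochondrial genes took 10.98 to 17.4% of counts. Their part in the members' changes was not tested.

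Against 24 h controls, with 68.2% of 17256 genes called, normoxia-hyperoxia slices had 5 members lower and 1 higher. Ppif was 0.511-fold (0.457 to 0.573; adjusted p = 1.4e-08) and Ppid 0.587-fold (0.519 to 0.662; adjusted p = 3.6e-07). Ppib, at 160 to 184 CPM, lay below all 6 controls (208 to 234), at 0.789-fold (0.727 to 0.857; adjusted p = 3.0e-05). Ppil1 fell by a log2 of 0.54 (adjusted p = 0.00054) and Ppig by 0.27 (0.00046). Ppic was higher by 0.21 (SE 0.08, adjusted p = 0.030), a call lost with scaling by total counts (0.04, adjusted p = 0.64), without the filter on low counts, with all 48 libraries fitted together, and without any 1 of 8 libraries: C57BL/6J control replicates 1, 2 or 3, DBA/2J control replicates 1 or 2, C57BL/6J normoxia-hyperoxia replicates 1 or 2, or DBA/2J normoxia-hyperoxia replicate 1 (adjusted p from 0.053 to 0.097). Ppia (-0.14, adjusted p = 0.067) and Ppih (-0.37, 0.071) did not pass. Ppia passed without C57BL/6J control replicates 1 or 2, DBA/2J control replicate 2 or DBA/2J normoxia-hyperoxia replicate 1 (-0.17 to -0.18), and Ppih without C57BL/6J control replicate 1 (-0.47) or C57BL/6J normoxia-hyperoxia replicate 3 (-0.46). With total-count scaling, under which the median of all genes was -0.17 in place of 0.00 and calls went from 5881 up and 5891 down to 4699 up and 7347 down, Ppia fell by 0.31 and Ppih by 0.54.

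In the lists, 12 of 14 ER partners were lower, with Pdia4 at -2.35 and Sdf2l1 at -2.27, and 10 of 14 HSP90 partners higher and 4 lower, from Dnajb1 at 3.08 and Hspa1b at 2.86 to Ptges3 at -0.30 and Cdc37 at -0.38. Spliceosome partners had 13 down, with Prpf3 at -0.98 and Plrg1 at -0.84, and 1 up, Prpf6 at 0.16, which turned to -0.01 with total-count scaling. Pore partners had 7 up, with Atp5o at 0.93 and Hspd1 at 0.76, and 1 down, Vdac3 at -0.59, or 7 up and 3 down with total-count scaling. Other cyclophilins had 6 down, with Ppie at -0.97 and Ppil3 at -0.57, and 1 up, Ppil6 at 1.83. FKBPs had 6 up and 2 down, which turned to 2 up and 4 down with total-count scaling. Calcineurin genes had 3 up and 5 down. Proximal tubule markers had 6 of 8 lower (median -1.03), and 8 other tubule, 7 immune, 6 podocyte, 5 endothelial and 4 stromal markers were higher, with 1 of each of the last 4 types lower. The part of these shifts was not tested.

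**Figure D3:**
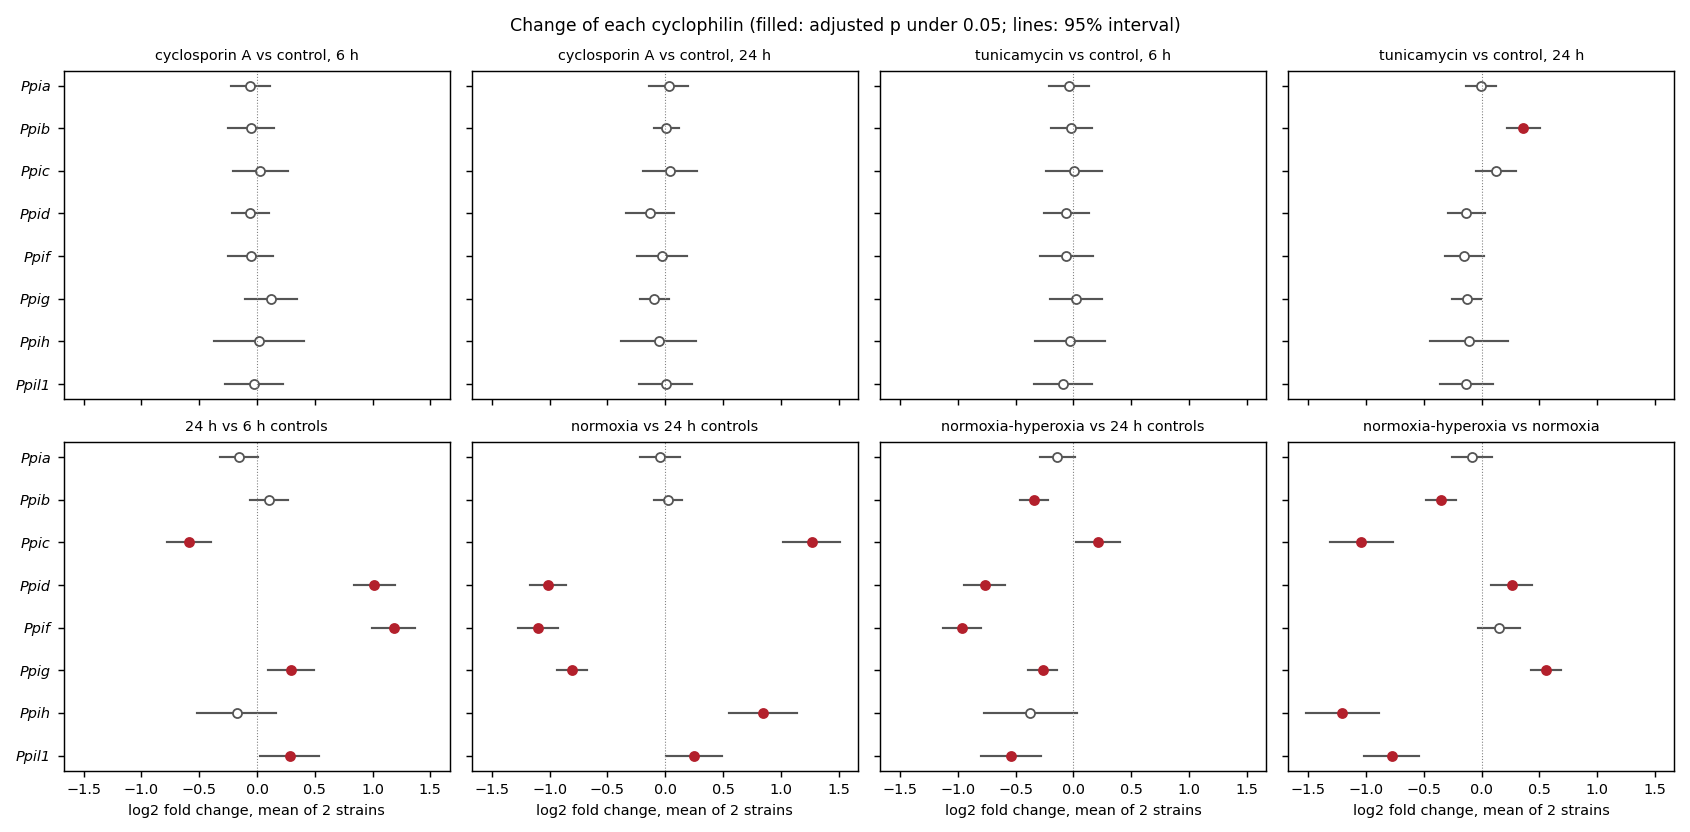
Log2 fold change of each cyclophilin, averaged over the 2 strains, with its 95% interval in 8 comparisons; filled points have an adjusted p under 0.05. No member is filled for cyclosporin A or for tunicamycin at 6 h, Ppib alone is filled for tunicamycin at 24 h, and 5 or 6 members are filled in each comparison of time or oxygen.

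The strains differed in a few members. In control slices, averaged over 6 h and 24 h, Ppih was 1.54-fold higher in DBA/2J (95% interval 1.22 to 1.95; adjusted p = 0.0039), Ppif 1.21-fold (1.07 to 1.38; adjusted p = 0.013) and Ppic 1.204-fold (1.05 to 1.37; adjusted p = 0.021). By time, the ratio of the strain means was a log2 of 0.44 for Ppic at 6 h, without overlap, and 0.06 at 24 h, with overlap; for Ppif it was 0.11 with overlap at 6 h and 0.42 without at 24 h. Ppih had 3.88, 3.46 and 4.43 CPM at 6 h in C57BL/6J and 6.21, 5.21 and 6.21 in DBA/2J, and 2.67, 4.35 and 3.31 against 6.31, 4.69 and 5.07 at 24 h, with no overlap at either time. These 3 of 8 stand beside 36.8% of all genes called between the strains. The Ppic call was lost without DBA/2J 6 h replicates 1 or 3, C57BL/6J 24 h replicate 3 or DBA/2J 24 h replicate 3, and in the fit of all 48 libraries (adjusted p from 0.051 to 0.080). The Ppif call was lost without C57BL/6J 6 h replicate 3 (0.24, adjusted p = 0.054), and Ppib passed without C57BL/6J 6 h replicate 2 (-0.17, 0.036). In the oxygen conditions, other libraries from the same strains gave Ppih at 1.43-fold (1.15 to 1.78; adjusted p = 0.0065), Ppif at 1.24-fold (1.096 to 1.41; adjusted p = 0.0042) and Ppia at 1.18-fold (1.05 to 1.33; adjusted p = 0.016) higher in DBA/2J, beside 46.9% of all genes. The Ppia call was lost without the filter on low counts (adjusted p = 0.096). Ppic passed, as lower in DBA/2J, without C57BL/6J normoxia replicate 1 (-0.25, 0.024).

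Over the 8 conditions, the DBA/2J mean was the higher for Ppif and Ppih in all 8, and for Ppia and Ppic in 7. It was the lower for Ppid in 7 and for Ppig in 6, and Ppib and Ppil1 had 4 each way. Ppic under normoxia was the exception for that gene, with all 3 DBA/2J libraries below all 3 of C57BL/6J (means 42.8 and 64.4 CPM, log2 -0.59). For Ppih the 3 libraries of each strain did not overlap in 5 conditions. How many of all genes have such patterns over the conditions was not counted, so these counts only describe the members. Proximal tubule markers were higher in DBA/2J, with 8 of 8 in controls (median log2 1.22) and 7 of 8 in the oxygen conditions (1.44). In DBA/2J controls 7 of 8 endothelial and 6 of 8 podocyte markers were lower, and 4 of 7 immune markers were higher. The mean share of mitochondrial counts was higher in C57BL/6J than in DBA/2J, at 15.4 against 8.16% in 6 h controls, 6.83 against 3.52% in 24 h controls, 23.9 against 12.3% under normoxia and 14.1 against 13.7% under normoxia-hyperoxia. In the oxygen conditions 7 of 8 other tubule (median -0.62), 7 of 8 stromal (-1.10), 5 podocyte and 4 endothelial markers were lower in DBA/2J. The part of these markers and shares was not tested. Of the spliceosome partners of Ppih 0 of 15 were called between the strains in controls and Srsf2 (0.21) was the 1 called in the oxygen conditions. Among other cyclophilins Nktr (-0.49) and Ranbp2 (-0.29) were lower in DBA/2J controls, and no other was called there. In controls the ER list had 2 higher and 4 lower, the HSP90 list 3 and 8, the pore list 4 and 1, and the FKBP list 4 and 0. Rcan2 was lower (-0.39), the only call of the calcineurin list. With total-count scaling the counts higher and lower in controls were 3 and 2 for the ER list, 4 and 7 for HSP90, 6 and 0 for pore, 7 and 0 for FKBP, 2 and 0 for spliceosome, and 2 and 1 each for other cyclophilins and calcineurin genes. In the oxygen conditions 10 of 14 HSP90 partners were lower in DBA/2J, led by Hspa1b at -0.89 and Hspa1a at -0.86, and 2 higher. There 7 ER partners were higher, led by Crtap at 0.53 and Dnajb11 at 0.43, and Serpinh1 was lower (-0.43). The pore list had 4 higher and 1 lower (2 and 1 with RLE factors), the FKBP list 5 and 0, and the other cyclophilins and the calcineurin genes 2 and 2 each.

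A difference between the strains in the size of a response was called for 2 members, among all 9 condition comparisons. From normoxia to normoxia-hyperoxia, Ppig rose by a log2 of 0.80 (SE 0.08) in C57BL/6J and 0.31 (SE 0.08) in DBA/2J, a difference of -0.485 (SE 0.11, adjusted p = 0.0081), where 18.2% of genes had such a difference. It was lost with total-count scaling (-0.32, adjusted p = 0.082) and in the fit of all 48 libraries (-0.39, 0.069). From 6 h controls to normoxia, Ppic differed by a log2 of 1.14 (SE 0.16) in C57BL/6J and 0.14 (SE 0.16) in DBA/2J, a difference of -1.002 (SE 0.23, adjusted p = 0.030), where 3.66% of genes had one. This call was lost without any 1 of 9 of the 12 libraries, the exceptions being C57BL/6J 6 h replicate 1, DBA/2J 6 h replicate 2 and C57BL/6J normoxia replicate 1 (adjusted p from 0.057 to 0.081 where lost). The Ppic difference from normoxia to normoxia-hyperoxia (0.71, adjusted p = 0.051) did not pass, and it passed without C57BL/6J normoxia replicate 1 (0.90, 0.0028) or DBA/2J normoxia-hyperoxia replicate 3 (0.86, 0.033). From 24 h controls to normoxia, the differences for Ppib (0.29, adjusted p = 0.064) and Ppic (-0.56, 0.087) did not pass, where 17% of genes had one, and both passed without C57BL/6J normoxia replicate 1 (0.35, 0.039 and -0.75, 0.0023), Ppic also without DBA/2J 24 h control replicate 2 (-0.69, 0.022). Without C57BL/6J 6 h replicate 1, Ppig also differed from 6 h controls to normoxia (0.51, 0.026). For Ppib, the difference between the strains in the response to tunicamycin at 24 h did not pass.

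Ppia is widely used as a reference gene for normalising expression, and its spread over these conditions was among the lowest. The SD of its log2 CPM over the 48 libraries was 0.154, the second of 15 common reference genes, after Ywhaz at 0.114 and before Tbp at 0.227. A smaller SD was found for 1.9% of the genes kept in the fit of all 48 libraries, and for 4.23% of those within 1 log2 unit of its mean level. Its group means spanned 0.44 on the log2 scale, from C57BL/6J under normoxia to DBA/2J under cyclosporin A at 6 h. Its SD within groups was 0.116. By contrast Actb had an SD of 0.609, Gapdh 0.655 and Rplp0 0.744. The rank of Ppia was 2 under every setting tried, total-count scaling and each left-out library included. The SDs of the other members were 0.215 for Ppib, 0.281 for Ppig, 0.308 for Ppil1, 0.449 for Ppih, 0.459 for Ppic, 0.479 for Ppid and 0.582 for Ppif, the last above 49.5% of all genes.

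**Figure D4:**
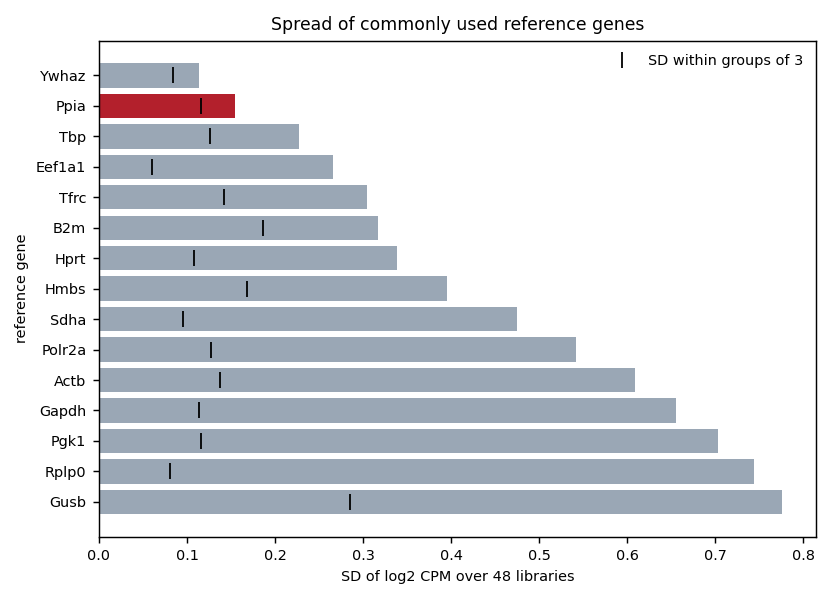
SD of log2 CPM over the 48 libraries for 15 commonly used reference genes (bars), with the SD within groups of 3 marked by a tick. Ppia (0.154, red) is second to Ywhaz (0.114), and Actb, Gapdh and Rplp0 lie at 0.609 or above.

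The genes whose log2 CPM followed each member most closely over the 48 libraries are given as a description, since the libraries share conditions and strains. For Ppid they were Fam208b (Pearson r = 0.961), Morc2a (0.957) and Vps4b (0.956), and for Ppif Arpc4 (0.966), Rrp7a (0.965) and Nol12 (0.961). For Ppib they were Sec61b (0.885), a subunit of the ER translocon, Nucb1 (0.883) and Ssr4 (0.881), a subunit of the translocon-associated complex. Ppic was followed by Slc38a3 (0.913), Slc39a8 (0.911) and Crot (0.902), membrane carriers of amino acids and metal ions and a peroxisomal enzyme. Ppig was followed by Socs4 (0.941) and Larp4 (0.935), and Ppih by Calm3 (0.894), Rnaseh2b (0.893) and Slc35e3 (0.890). The closest genes were less close for Ppil1, with Igf2bp1 at 0.841, Tsn at 0.805 and Med8 at 0.800, and for Ppia, with Nme2 at 0.772, Atg3 at 0.719 and Tpt1 at 0.710. Among the members, Ppid and Ppif had the highest correlation with each other (0.886), Ppic and Ppih had 0.660, and Ppic ran opposite to Ppig (-0.793) and Ppid (-0.687).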

How the data were processed

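The authors deposited 1 table of whole-number read counts per Ensembl gene, without normalization, for 48 libraries. Per the labels' protocols, these were stranded mRNA libraries from total RNA. The submitters' processing notes name bcl2fastq 2.20.0, FastQC 0.11.8, STAR 2.7.9a, featureCounts 1.5.1 and GRCm38. The strand setting, the annotation release and the treatment of multiply mapped reads are not given in the sources used here. Of the 55487 IDs 55141 matched a symbol, and all 160 symbols of the members and lists were found; Atp5o had 2 rows, of which the one with more counts was used. No 2 libraries were identical.

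For each comparison, edgeR 4.0.16 (R 4.3.3, limma 3.58.1) was run on the 12 libraries concerned, in 4 groups: TMM factors, the default low-count filter and a robust quasi-likelihood F test, with 8 residual degrees of freedom. A gene was called at a Benjamini-Hochberg adjusted p under 0.05 over all genes tested. Intervals of 95% came from the standard errors and a t distribution with 8 degrees of freedom. The F test adds degrees of freedom estimated over all genes, so an interval can include 0 at an unadjusted p under 0.05. P-values measure the spread between these libraries. CPM used TMM factors over all 48 libraries, with a prior count of 2 for SDs and correlations. Scripts were tested on simulated counts with known changes. In the cyclosporin A comparisons, 51.6% of 1.5-fold changes were recovered at 6 h and 55.8% at 24 h. For 2-fold changes the shares were 73.7% and 72.7%. For tunicamycin at 24 h they were 60% at 1.5-fold and 79.8% at 2-fold. Changes of these sizes can therefore go uncalled.

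Alternatives were RLE factors, total-count scaling, no filter, the replicate number as a block, DESeq2 1.42.0, a fit of all 48 libraries, and leaving out each library. The members and lists were chosen with earlier results of these data known. All 8 members count as named genes and are given by value or within a stated range in every comparison. From each list, at most the 2 called genes with the largest rise and the 2 with the largest fall are named, any gene of a list with 3 or fewer calls, and, outside this rule, list genes that share a complex with a member. For each member the 3 genes with the highest correlation are named, except 1 that is not reported here; nor are some genes of the lists. Coordinates follow GENCODE M21 and upstream sequences RefSeq's GRCm38.p6 table. Copies were found by aligning principal transcripts to all transcripts.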

Additional observations from a re-analysis of the deposited data

Results flagged for a closer look

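Both results below stand out because the test of the difference between the strains' responses passed. The rise of Ppig from normoxia to normoxia-hyperoxia was smaller in DBA/2J than in C57BL/6J, by -0.485 on the log2 scale (adjusted p = 0.0081, edgeR); the call was lost with total-count scaling (-0.32, 0.082) and in the fit of all 48 libraries (-0.39, 0.069). Over the libraries, Ppig went from 53.6, 53.6 and 59.1 to 98.3, 89.8 and 99.0 CPM in C57BL/6J and from 67.1, 71.9 and 62.2 to 87.4, 90.1 and 86.7 in DBA/2J. C57BL/6J was the lower strain under normoxia and overlapped DBA/2J under normoxia-hyperoxia.

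The difference of Ppic between 6 h controls and normoxia was smaller in DBA/2J by -1.002 on the log2 scale (adjusted p = 0.030, edgeR); the call was lost without any 1 of 9 of the 12 libraries (adjusted p from 0.057 to 0.081). These groups also differ in time and in the part of the study they belong to. In C57BL/6J Ppic went from 29.2, 26.3 and 30.1 to 45.8, 79.1 and 68.4 CPM, and in DBA/2J from 42.6, 31.99 and 41.8 to 44.7, 39.5 and 44.3. The C57BL/6J normoxia libraries were the most spread of any group for Ppic, at 64.4 ± 17.04 CPM (SD, n = 3).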

How the results depend on the processing

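Of the 35 called differences of members (interactions aside), the alternatives gave 630 values: 593 kept direction and call, 36 kept direction but lost the call and 1 turned, Ppil1 from 24 h controls to normoxia with total-count scaling (-0.024). Of 951 values for the 53 differences not called, 857 kept direction and stayed uncalled, 19 kept direction and passed, and 75 changed sign. Among those 75 was Ppib from 24 h controls to normoxia with total-count scaling, which was then called. The number of members called was the same within 1.5 times under all alternatives for every effect over both strains and for both strain differences, and Ppib under tunicamycin at 24 h passed in each (adjusted p up to 0.047). Counts of all genes moved more where effects were small. Cyclosporin A at 24 h had 3 genes without the filter, 19 by DESeq2 and 3 with all 48 libraries. At 6 h it had 4 without the filter, 45 by DESeq2 and 0 to 1 with each library left out. Tunicamycin at 24 h had 395 without the filter, 536 by DESeq2 and 78 to 344 with each library left out; the lowest was without C57BL/6J tunicamycin replicate 1.

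The deviations of same-numbered libraries correlated at -0.139 to 0.366. No comparison had all 6 pairs over 0.1, the limit set for pairing, so the numbers were not taken as pairs; 5 of 6 were over it for normoxia against 6 h controls and for tunicamycin at 6 h. The replicate block called 314 genes for tunicamycin at 24 h and as many members as the fit without it in every effect over both strains. With the block, Ppih under cyclosporin A at 6 h was -0.0034, Ppic under tunicamycin at 6 h -0.0012 and Ppil1 between the strains in the oxygen conditions -0.011.

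The cause of the other changes of sign was not tested. Ppib from 24 h controls to normoxia turned to -0.25 with total-count scaling and was then called. With that scaling Ppih under cyclosporin A at 6 h (-0.010) turned too, as did Ppia (0.054) and Ppih (0.033) from 6 h to 24 h, Ppia from normoxia to normoxia-hyperoxia (0.0081) and Ppid between the control strains (0.016). Ppib from 24 h controls to normoxia was -0.010 with RLE factors, -0.009045 by DESeq2 and -0.019 with all 48 libraries. Between the strains in the oxygen conditions, Ppib was -0.0086 without the filter, and Ppil1 was -0.012 with RLE factors, -0.062 without the filter, -0.012 by DESeq2 and -0.033 with all 48 libraries. Ppil1 under cyclosporin A at 24 h was -0.00106 with all 48 libraries.

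With each library left out, values under cyclosporin A at 24 h ran from -0.035 to 0.071 for Ppia, -0.013 to 0.037 for Ppib, -0.023 to 0.13 for Ppic, -0.080 to 0.037 for Ppif, -0.14 to 0.049 for Ppih and -0.064 to 0.086 for Ppil1. At 6 h they ran from -0.063 to 0.080 for Ppic, -0.087 to 0.0056 for Ppid, -0.084 to 0.016 for Ppif, -0.16 to 0.13 for Ppih and -0.071 to 0.040 for Ppil1. Under tunicamycin at 6 h they ran from -0.077 to 0.036 for Ppib, -0.097 to 0.054 for Ppic, -0.13 to 0.0051 for Ppif, -0.050 to 0.083 for Ppig and -0.13 to 0.042 for Ppih, and at 24 h from -0.037 to 0.035 for Ppia. Ppia from 24 h controls to normoxia ran from -0.098 to 0.014 and Ppid from 6 h controls to normoxia from -0.079 to 0.041. Between the strains Ppig ran from -0.052 to 0.084 in controls and Ppil1 from -0.090 to 0.062 in the oxygen conditions. Depth limits Ppih most, at 29 to 200 counts per library.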
